A study of Mus musculus with 17 samples.

Results

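Bap1 and 9 genes whose proteins work with it were followed through mouse macrophages and early osteoclasts that carried or lacked a Cre-deleted Bap1. The 10 genes, Bap1, Asxl1, Asxl2, Foxk1, Foxk2, Hcfc1, Ogt, Kdm1b, Mbd5 and Mbd6, were named as BAP1 and proteins known to bind it, and each symbol was matched to its Ensembl identifier among the 41388 genes of the count tables. All 10 were found, and all 10 passed the filter on low counts in every comparison.

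The RNA came from bone marrow macrophages grown in M-CSF alone (BMM) and from the same kind of culture given RANKL at 100 ng/ml for 24 h (OC), a stage of osteoclast precursors that comes before mature, multinucleated cells. Per the study's methods, Bap1LysM mice were Bap1fl/fl and carried 1 copy of LysM-Cre, in which Cre replaces part of Lyz2 (lysozyme M) and cuts floxed alleles in cells of the myeloid lineage. The controls, Bap1flox, were littermates with the same floxed Bap1 alleles and no Cre. There were 3 Bap1flox BMM, 3 Bap1LysM BMM, 6 Bap1flox OC and 5 Bap1LysM OC libraries, and the mice of the OC libraries were males 20 weeks old. The age and sex behind the BMM libraries are not given in the sources used here.

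BAP1 is a nuclear deubiquitinase that removes monoubiquitin from a lysine near the C-terminal end of histone H2A, a mark that Polycomb repressive complex 1 (PRC1) writes. It is active only when bound to an ASXL protein, and the FOXK transcription factors bring the complex to DNA. HCFC1 is a chromatin scaffold that BAP1 binds, OGT is the enzyme that attaches O-linked N-acetylglucosamine to nuclear and cytoplasmic proteins and is needed to process HCFC1, KDM1B is a histone H3 lysine 4 demethylase, and MBD5 and MBD6 bind the complex through ASXL. In bone, RANKL turns macrophages towards osteoclasts, the cells that resorb it.

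For 5 of the members, the sequence around the transcription start is shown here, 250 bases before it to 50 after, 5' to 3', from RefSeq (GRCm38.p6). Bap1 is the deleted gene, although edgeR did not call its own level, Asxl2, Mbd5 and Ogt were called between the genotypes in OC, and Hcfc1 was called with RANKL, as were Foxk2 and Mbd6, which are not shown. Mbd5 and Ogt have 2 windows each, of which the one farther upstream is shown. Capitals mark matches, on either strand, to CACGTG (an E-box), CCGGAAGT (an ETS motif), TGCGCANG (part of the NRF1 element) and AAGATGGCG (a YY1 motif).
Bap1, chr14:31251239-31251538, plus strand: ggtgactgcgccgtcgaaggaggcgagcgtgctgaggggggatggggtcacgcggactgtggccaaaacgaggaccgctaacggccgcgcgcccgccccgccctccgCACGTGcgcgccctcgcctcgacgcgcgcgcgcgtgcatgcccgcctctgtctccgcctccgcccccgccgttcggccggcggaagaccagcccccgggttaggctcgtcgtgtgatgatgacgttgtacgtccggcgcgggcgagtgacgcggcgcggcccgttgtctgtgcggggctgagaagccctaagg
Asxl2, chr12:3426607-3426906, plus strand: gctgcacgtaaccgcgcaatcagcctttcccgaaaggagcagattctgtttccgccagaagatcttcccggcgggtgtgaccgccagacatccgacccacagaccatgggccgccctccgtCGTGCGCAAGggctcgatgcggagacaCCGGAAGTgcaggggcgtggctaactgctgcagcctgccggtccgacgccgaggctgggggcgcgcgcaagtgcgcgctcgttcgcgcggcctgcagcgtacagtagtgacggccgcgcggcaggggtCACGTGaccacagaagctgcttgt
Mbd5, chr2:48949258-48949557, plus strand: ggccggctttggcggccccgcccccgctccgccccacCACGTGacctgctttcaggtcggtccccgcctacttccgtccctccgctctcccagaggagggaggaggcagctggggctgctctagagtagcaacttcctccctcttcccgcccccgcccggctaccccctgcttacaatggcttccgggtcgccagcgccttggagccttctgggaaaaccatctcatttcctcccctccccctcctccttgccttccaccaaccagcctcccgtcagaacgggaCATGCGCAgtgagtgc
Ogt, chrX:101639801-101640100, plus strand: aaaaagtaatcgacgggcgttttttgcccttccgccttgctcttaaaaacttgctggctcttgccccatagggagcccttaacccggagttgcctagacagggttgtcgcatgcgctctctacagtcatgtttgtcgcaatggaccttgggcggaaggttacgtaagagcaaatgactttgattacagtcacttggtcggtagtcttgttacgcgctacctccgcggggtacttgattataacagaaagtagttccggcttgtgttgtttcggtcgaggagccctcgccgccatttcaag
Hcfc1, chrX:73966308-73966607, minus strand: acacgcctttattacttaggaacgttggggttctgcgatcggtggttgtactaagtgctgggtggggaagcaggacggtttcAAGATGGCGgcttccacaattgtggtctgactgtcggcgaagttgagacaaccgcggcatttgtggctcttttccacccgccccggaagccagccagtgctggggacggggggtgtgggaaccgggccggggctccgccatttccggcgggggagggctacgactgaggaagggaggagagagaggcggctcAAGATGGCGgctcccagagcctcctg

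Such windows were found for 9 of the 10 members, 12 windows in all, and Foxk1 was not matched. CACGTG was found in 3 of the 12, those of Bap1, Asxl2 and Mbd5, and in 7.15% of all 32851 windows of the same length. TGCGCANG was found in 4 of the 12 (Asxl2, Mbd5 and both windows of Mbd6, which overlap and hold the same site) and in 5.82% of all windows. The Hcfc1 window held AAGATGGCG at 2 places, and 1.4% of all windows hold it at least at 1. CCGGAAGT was found in the Asxl2 window alone among the 12 and in 3.89% of all. The printed Ogt window held none of these 4 motifs. Not in capitals, GGGCGG (a GC box) was in 11 of the 12 windows and 35.7% of all, CCAAT in 2 and 37.4%, and TGACGTNN (the core of a cAMP response element, CRE) and TGACNNNGC (an NRF2 core) in 1 each, that of Bap1, and in 7.49% and 12.4%. TGACGTCA (a full CRE), the forkhead motif GTAAACA, the TATA box written as TATAAA, the ATF4 motif TGATGNAA and the ZNF143 motif CCCAGAATG were in 0 of the 12 windows and in 1.79%, 3.65%, 13.6%, 3.97% and 0.679% of all. CACGTG equals its reverse complement, TGACGTNN overlaps TGACGTCA, and all motifs were searched on both strands. The member windows were 42.3% to 79.3% G and C, with C followed by G at 4 to 59 places. The medians of all windows were 52.7% and 7, and the motif shares were not adjusted for this.

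The libraries held 37967542 to 61369441 counts. The titles of all libraries have one form, but the deposited data of replicates 1 to 3 and of replicates 4 to 6 were named in different forms, and these are called library sets here. Whether they were prepared apart is not given in the sources used here. The share of counts from mitochondrial genes was 0.481% to 1.07% in the first set and 2.36% to 5.26% in the second, which holds OC libraries only. The 10 osteoclast markers, such as Acp5 and Ctsk, summed to 241 to 386 CPM (a count scaled to the total of its library) in the BMM libraries of both genotypes and to 6064 to 16378 CPM in OC. All 8 macrophage markers were above 1 CPM in all groups. Lyz2 was at 12.7 to 41.4 CPM in 6 of the 8 Bap1LysM libraries, but at 9579 CPM in BMM replicate 1 and 6883 CPM in OC replicate 1, where the Bap1flox means were 20956 CPM (n = 3) and 8544 CPM (n = 6). Of the Bap1flox mean of the same culture, this is 0.148% to 0.485% in the 6 libraries and 45.7% and 80.6% in the other two. The 6 low values go against the stated genotype, which leaves 1 Lyz2 allele without Cre. The value of OC replicate 1 lay within the Bap1flox OC range of 6517 to 12985 CPM, where replicates 1 to 3 had a mean of 7011 CPM. No reduction from 1 Cre allele was therefore seen in it. The libraries are named here as they are labelled. No fit left out both of these 2 libraries, and only some results are also given with 1 of them left out.

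Levels are CPM after scaling by TMM factors over all 17 libraries. Set against exon length, the member with the highest level in BMM was Mbd6, at 40.4 ± 1.11 CPM per kb (SD, n = 3) in Bap1flox. Ogt followed at 29.3 ± 5.15, Hcfc1 at 23.9 ± 0.924 and Bap1 at 18.3 ± 0.37 CPM per kb, and none of these neighbours overlapped. Asxl1, Foxk1 and Foxk2 lay close together at 11.9, 11.7 and 10.3 CPM per kb with overlapping libraries. Asxl2 (3.69 CPM per kb), Kdm1b (3.27) and Mbd5 (1.31) were the lowest, and the first pair of these overlapped. In Bap1flox OC the order had changed: Hcfc1 (29 ± 3.51 CPM per kb, SD, n = 6) and Mbd6 (24.6 ± 4) overlapped at the top, and Ogt had moved to 5th place at 12.3 ± 1.61 CPM per kb. In Bap1LysM OC, Foxk2, Ogt and Bap1 stood at 16.9, 16.6 and 15.4 CPM per kb (n = 5), each overlapping the next. Mbd5 was last in all 4 groups.

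**Figure D1:**
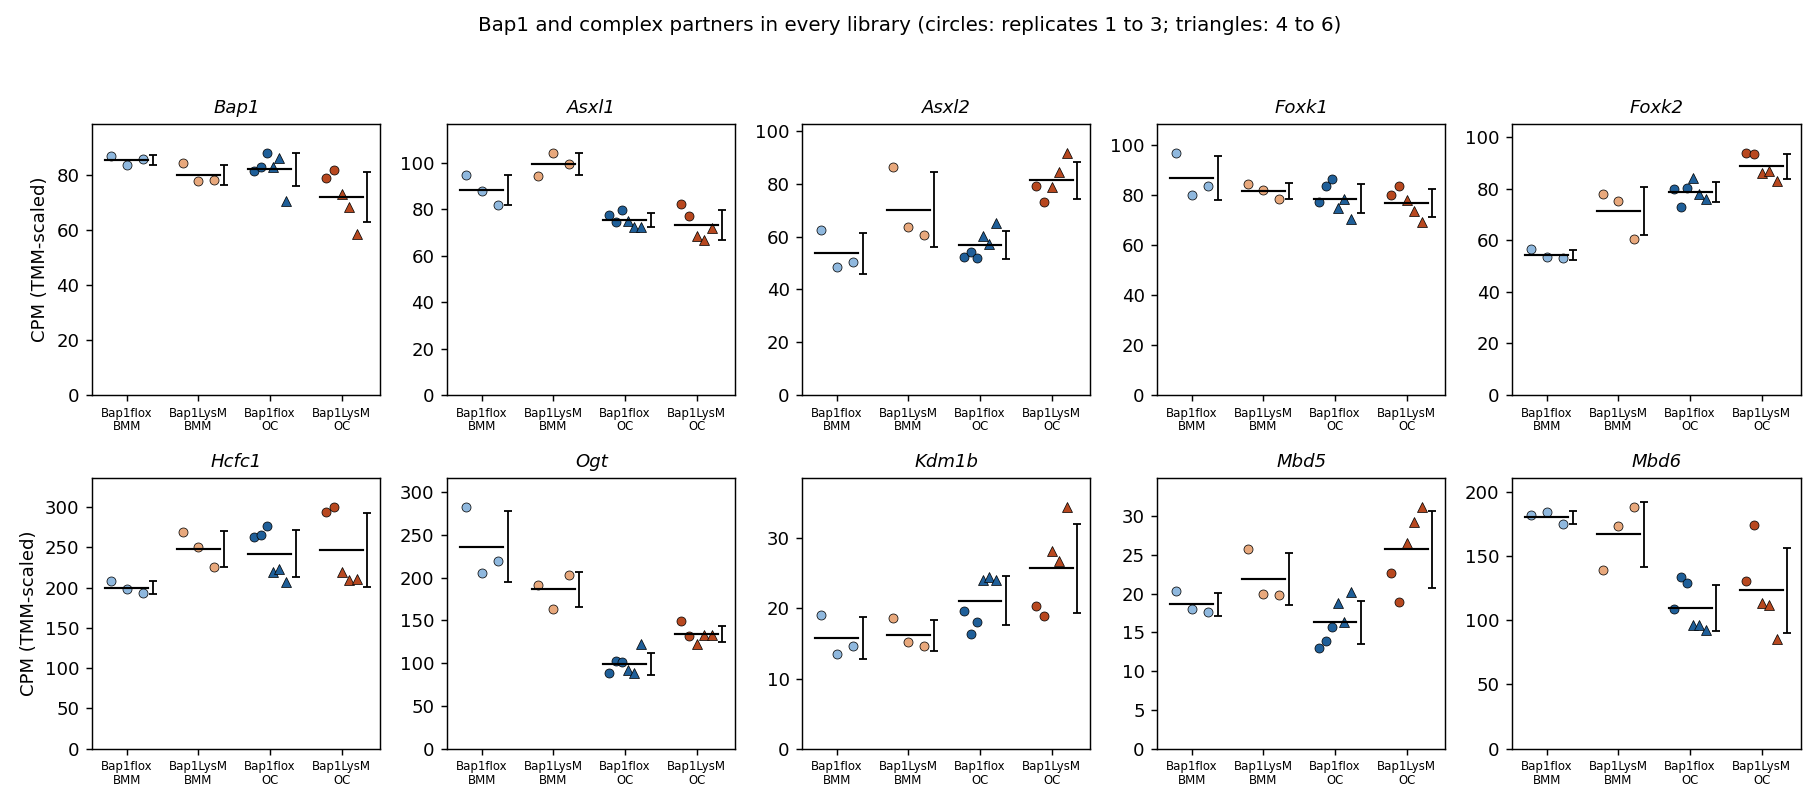
TMM-scaled CPM of each member (vertical axes, from 0) in every library of the 4 groups (horizontal axes). Points are libraries, circles for replicates 1 to 3 and triangles for replicates 4 to 6, lines are group means and bars are 1 SD. Asxl2 in OC is at 51.9 to 65.2 CPM in Bap1flox and at 73 to 91.7 CPM in Bap1LysM, and Ogt falls from 205 to 283 CPM in Bap1flox BMM to 88.7 to 123 CPM in Bap1flox OC.

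Whether deletion of Bap1 came with altered transcripts of its own complex was asked first in OC. Of the 10 members, 3 were called at an adjusted p under 0.05 in edgeR, Asxl2, Mbd5 and Ogt, all of them higher in Bap1LysM. Of all 12919 genes tested, 15.8% were called and 7.12% were called as higher (920 of 2040 calls, or 696 of 2098 with upper-quartile factors). The median log2 fold change of the 10 members was 0.14, against -0.01 over all genes. In bulk RNA, a lower level in each cell and fewer cells of a type that expresses the gene cannot be told apart.

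Bap1 (ENSMUSG00000021901, chr14:31251450-31259944, plus strand, 12 exon blocks) was at a lowest, median and highest level of 70.7, 83 and 88 CPM in the 6 Bap1flox OC libraries. In Bap1LysM OC replicates 1, 2, 4, 5 and 6 it was at 78.9, 81.8, 73, 68.4 and 58.7 CPM. The genotypes overlapped, and the lowest library of all was Bap1LysM replicate 6. The log2 fold change of -0.22 (SE 0.10, 95% interval -0.44 to 0.01) had an adjusted p of 0.18 in edgeR. Replicates 1 to 3 alone gave -0.08 (adjusted p = 0.63) and replicates 4 to 6 alone -0.31 (adjusted p = 0.055). Without Bap1LysM replicate 1, which kept Lyz2, the log2 fold change of Bap1 was -0.26 (adjusted p = 0.10, edgeR). Under limma's voomWithQualityWeights, which weights libraries by their fit and gave Bap1LysM replicates 4 and 5 weights of 3.72 and 3.85 against 0.219 and 0.293 for replicates 1 and 2, the log2 fold change over all OC libraries was -0.31 with an adjusted p of 0.0037. Counts are per gene, so reads from the floxed exons were not told apart from the rest, and the count does not measure deletion.

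Asxl2, an obligate cofactor of BAP1, rose in Bap1LysM OC. The Bap1flox OC libraries were at 51.9, 55.8 and 65.2 CPM (lowest, median, highest) and the Bap1LysM OC replicates 1, 2, 4, 5 and 6 at 79.1, 73, 79, 84.3 and 91.7 CPM. Every Bap1LysM library was above every Bap1flox library. Genotypes that did not overlap, in either direction, were found for 1 of the 10 members, Asxl2, and for 9.46% of all genes tested. The log2 fold change was 0.48 (SE 0.08, adjusted p = 0.0026, edgeR), or 1.4-fold with a 95% interval of 1.24 to 1.58. It was 0.51 in replicates 1 to 3 alone, where edgeR called 0 genes at an adjusted p under 0.05 and Asxl2 had an adjusted p of 0.17, and 0.44 in replicates 4 to 6 alone (adjusted p = 0.0069). Asxl1, its paralogue (chr2:153345845-153404007), was at 72.3, 74.6 and 79.9 CPM in Bap1flox OC and at 66.7, 72.1 and 82.5 CPM in Bap1LysM OC (lowest, median, highest). Its genotypes overlapped, with a log2 fold change of -0.07 (95% interval -0.25 to 0.11, adjusted p = 0.60).

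The ratio of Asxl2 to Asxl1 per exon length therefore differed between the genotypes in OC. It was 0.331 to 0.459 in Bap1flox OC (mean 0.386, SD 0.0478, n = 6) and 0.483 to 0.648 in Bap1LysM OC (mean 0.57, SD 0.0808, n = 5), with no overlap. In BMM it was 0.336, 0.281 and 0.312 in Bap1flox and 0.466, 0.311 and 0.31 in Bap1LysM, where replicate 1 alone stood apart. Asxl1 remained the more abundant of the pair per length in all 17 libraries. In the annotation, 2.65% of the Asxl1 exon bases and 1.06% of those of Asxl2 (chr12:3426857-3506852) are shared with another annotated gene, and how strand was used in the counting is not known here.

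Mbd5, a methyl-CpG-binding domain protein, was also higher in Bap1LysM OC. Its levels were 13, 16 and 20.2 CPM in Bap1flox OC (lowest, median, highest) and 22.7, 18.9, 26.6, 29.3 and 31.2 CPM in Bap1LysM OC replicates 1, 2, 4, 5 and 6. The genotypes overlapped through Bap1LysM replicate 2 and the highest Bap1flox library, which is of the other library set. The log2 fold change of 0.62 (SE 0.14, adjusted p = 0.014, edgeR) came to 0.54 in replicates 1 to 3 (adjusted p = 0.20) and to 0.61 in replicates 4 to 6 (adjusted p = 0.0037). Mbd5 (chr2:48949510-49322284) shares 0.956% of its exon bases with Orc4. Mbd6 (chr10:127281956-127289018), the paralogue, was at 92.7, 103 and 134 CPM in Bap1flox OC and 85.3, 114 and 174 CPM in Bap1LysM OC (lowest, median, highest), with a log2 fold change of 0.14 (95% interval -0.26 to 0.53, adjusted p = 0.65).

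Ogt (chrX:101640060-101684351) was the third member called in OC. The Bap1flox OC libraries stood at 88.7, 96.6 and 123 CPM (lowest, median, highest) and the Bap1LysM OC replicates 1, 2, 4, 5 and 6 at 149, 132, 122, 132 and 133 CPM. The ranges touched, because Bap1flox replicate 6 at 123 CPM lay above Bap1LysM replicate 4. The log2 fold change was 0.40 (SE 0.10, adjusted p = 0.023, edgeR), 0.51 in replicates 1 to 3 alone (adjusted p = 0.18) and 0.31 in replicates 4 to 6 alone (adjusted p = 0.093). The call was lost without Bap1flox replicate 1 (adjusted p = 0.051), Bap1flox replicate 5 (0.055) or Bap1LysM replicate 5 (0.053).

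The remaining members were not called in OC by edgeR. DESeq2 called Foxk2 (log2 fold change 0.17, adjusted p = 0.046), and voomWithQualityWeights called Asxl1 (-0.19, adjusted p = 0.019) and Kdm1b (0.36, adjusted p = 0.016) beside Bap1. Of all genes, DESeq2 called 22.5% and voomWithQualityWeights 54.9%, against 6 of the 10 members under the latter. Foxk2 (chr11:121259990-121309896) was at 73.1, 78.9 and 84.3 CPM in Bap1flox and 83, 87 and 93.9 CPM in Bap1LysM OC (lowest, median, highest), and its log2 fold change was 0.14 (adjusted p = 0.20, edgeR). Foxk1 (chr5:142401497-142462014) had a log2 fold change of -0.06 with a 95% interval of -0.26 to 0.13. Kdm1b (chr13:47043499-47084613) was at 16.4, 21.9 and 24.4 CPM in Bap1flox and 18.9, 26.8 and 34.5 CPM in Bap1LysM OC, with a log2 fold change of 0.25 (adjusted p = 0.31). Hcfc1 (chrX:73942792-73966357) was at 207, 243 and 276 CPM in Bap1flox and 209, 219 and 301 CPM in Bap1LysM OC, with a log2 fold change of -0.01 and a 95% interval of -0.32 to 0.30.

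Several members stood at other levels in the 2 library sets, in both genotypes. Hcfc1 in Bap1flox OC was at 263, 266 and 276 CPM in replicates 1 to 3 and at 219, 223 and 207 CPM in replicates 4 to 6, and in Bap1LysM OC at 294 and 301 against 219, 209 and 211 CPM. Mbd6 was lower in the second set in both genotypes, whereas Kdm1b and Mbd5 were higher there. How many of all genes differed between the sets in this way was not counted. With the library set as a term, 3 members were called, again Asxl2, Mbd5 and Ogt, with log2 fold changes of 0.47, 0.58 and 0.40 and adjusted p-values of 0.00027, 0.00075 and 0.0078 in edgeR. This fit called 33.6% of all genes, close to the share of the members.

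**Figure D2:**
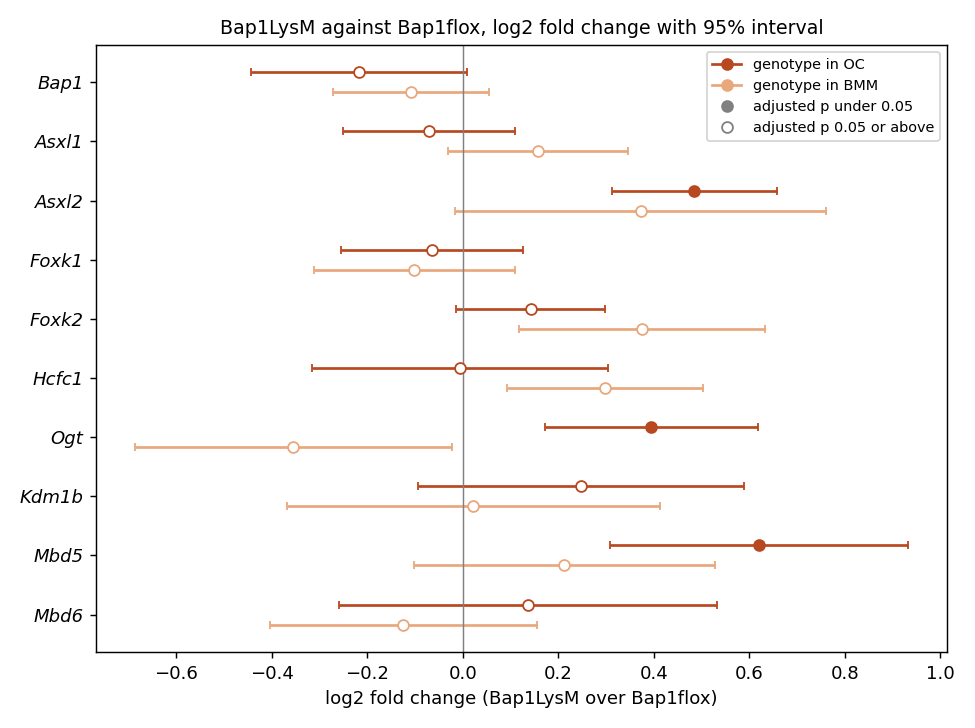
Log2 fold change of each member, Bap1LysM over Bap1flox (horizontal axis), in OC (dark) and BMM (light). Bars are 95% intervals from edgeR and filled points had an adjusted p under 0.05. Only Asxl2, Ogt and Mbd5 in OC are filled, at 0.48, 0.40 and 0.62, and Ogt lies to the left of 0 in BMM at -0.35.

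Levels of markers of other cells were summed in each OC library. The neutrophil and the B and plasma cell sums had higher medians in Bap1LysM OC, 449 against 121 CPM and 35.5 against 12.3 CPM. So did the macrophage (5432 against 3989 CPM), dendritic (6.5 against 3.25 CPM) and osteoclast sums (13866 against 11823 CPM). The stromal sum had a lower median, 376 against 705 CPM. The ranges of the genotypes overlapped for each list given here. The summed level of 8 neutrophil markers, 7 of them above 1 CPM, was 61.4 to 179 CPM in Bap1flox OC and 170 to 615 CPM in Bap1LysM OC. That of 8 B and plasma cell markers, of which 2 and 3 were above 1 CPM, was 7.07 to 15.5 and 11.3 to 48.4 CPM, and that of the 8 macrophage markers 3653 to 4851 and 3747 to 5913 CPM. The 6 stromal markers summed to 175 to 1895 CPM and 96.1 to 1226 CPM, and the 5 dendritic markers to 2.14 to 4.41 and 2.87 to 8.18 CPM. T and NK cell and erythroid markers summed to under 1 CPM in every library, with Hbb-bt at 0 counts in all OC libraries. In Bap1flox BMM the B and plasma cell sum was 96.8 to 122 CPM, above that in OC. The medians in Bap1flox BMM and OC were 2367 and 705 CPM for stromal, 185 and 121 CPM for neutrophil and 2.96 and 3.25 CPM for dendritic markers. The part of these cells in the members' values was not tested, for genotype or for RANKL.

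The same question was asked in BMM, before RANKL. None of the 10 members had an adjusted p under 0.05 in edgeR with no term for the replicate number, where 5.32% of all 13028 genes did. At an unadjusted p under 0.05 there were 3, Foxk2, Hcfc1 and Ogt, and DESeq2 and voomWithQualityWeights called 2 each, Foxk2 and Hcfc1. Over all genes these shares were 26.2% at an unadjusted p under 0.05, 15.9% in DESeq2 and 13.6% under voomWithQualityWeights. These 3 members were also those whose genotypes did not overlap, as held for 34.0% of all genes with 3 libraries against 3.

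Foxk2 was at 56.5, 53.6 and 53.1 CPM in Bap1flox BMM and at 77.8, 75.3 and 60.6 CPM in Bap1LysM BMM, a log2 fold change of 0.38 (SE 0.11, adjusted p = 0.089, edgeR). Hcfc1 was at 208, 198 and 193 CPM and at 269, 250 and 225 CPM, a log2 fold change of 0.30 (SE 0.09, adjusted p = 0.089). Ogt lay in the other direction, at 283, 205 and 219 CPM in Bap1flox and 191, 164 and 203 CPM in Bap1LysM BMM, with a log2 fold change of -0.35 (SE 0.14, adjusted p = 0.17). Asxl2 was at 62.6, 48.4 and 50.2 CPM and at 86.5, 63.7 and 60.5 CPM, with a log2 fold change of 0.37 (adjusted p = 0.20) that was 0.20 without Bap1LysM BMM replicate 1. Bap1 itself was at 87, 83.6 and 86 CPM and at 84.4, 77.7 and 78.2 CPM, a log2 fold change of -0.11 (95% interval -0.27 to 0.05, adjusted p = 0.34). With the replicate number as a block, Asxl2 (log2 fold change 0.36, adjusted p = 0.037) and Foxk2 (0.37, adjusted p = 0.049) were called, where 16.2% of all genes were called in the same fit.

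The change with RANKL was followed in replicates 1 to 3, the libraries with both kinds of culture. In Bap1flox, 5 of the 10 members were called, 2 higher and 3 lower in OC, where 56.7% of all 14102 genes were. Ogt fell the furthest. It was at 283, 205 and 219 CPM in BMM and 88.7, 103 and 102 CPM in OC, a log2 fold change of -1.27 (SE 0.14, adjusted p = 6.2e-05, edgeR). Mbd6 was at 182, 184 and 175 CPM in BMM and 109, 134 and 129 CPM in OC (log2 fold change -0.54, adjusted p = 0.0082). Mbd5 was at 20.4, 18 and 17.6 CPM and at 13, 13.9 and 15.7 CPM (log2 fold change -0.39, adjusted p = 0.032), a call that was lost without any of Bap1flox BMM replicates 1 and 2 and OC replicates 1 and 2 (adjusted p 0.053 to 0.11).

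Asxl1 was at 94.9, 87.9 and 82.1 CPM in BMM and at 77.8, 74.5 and 79.9 CPM in OC. The log2 fold change of -0.19 was not called in edgeR (adjusted p = 0.065, and 0.041 to 0.20 with a library left out, under 0.05 in 2 of 11 fits). DESeq2 and voomWithQualityWeights called it (adjusted p 0.028 and 0.031).

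Foxk2 and Hcfc1 rose with RANKL. Foxk2 went from 56.5, 53.6 and 53.1 CPM to 79.7, 73.1 and 80.3 CPM (log2 fold change 0.52, SE 0.10, adjusted p = 0.0014). Hcfc1 went from 208, 198 and 193 CPM to 263, 266 and 276 CPM (log2 fold change 0.43, SE 0.08, adjusted p = 0.0016). Bap1 changed by -0.02 on the log2 scale with a 95% interval of -0.17 to 0.13, Foxk1 by -0.07 (-0.26 to 0.13) and Asxl2 by -0.02 (-0.34 to 0.30). The per-length ratio of Foxk1 to Foxk2 was 1.05 to 1.21 in Bap1flox BMM and 0.686 to 0.808 in Bap1flox OC replicates 1 to 3, so that in Bap1flox Foxk1 was the more abundant in BMM and Foxk2 in OC. In Bap1LysM BMM this ratio was 0.767 to 0.915, below all 3 Bap1flox BMM libraries. The ratio of Mbd6 to Mbd5 was 28.5 to 32.6 in Bap1flox BMM and 26.2 to 30.8 in Bap1flox OC replicates 1 to 3, but 14.7 to 18.8 in Bap1flox OC replicates 4 to 6.

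**Figure D3:**
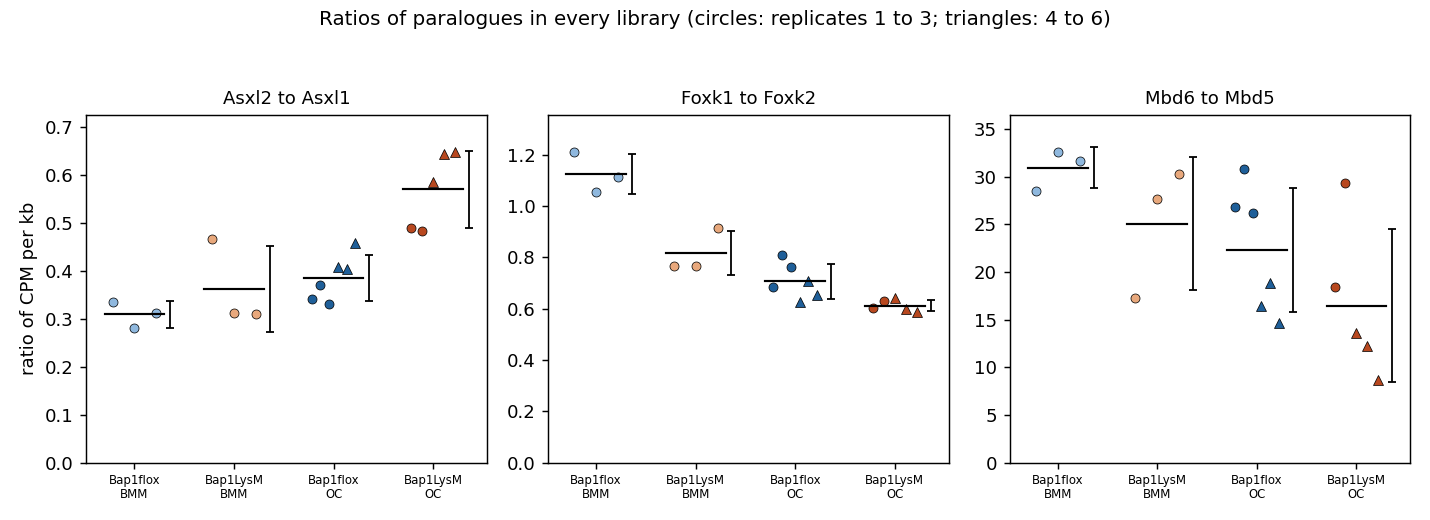
Ratio of CPM per kb of exon (vertical axes, from 0) of Asxl2 to Asxl1, Foxk1 to Foxk2 and Mbd6 to Mbd5 in every library of the 4 groups. Points are libraries, circles for replicates 1 to 3 and triangles for 4 to 6, lines are means and bars 1 SD. The Asxl2 to Asxl1 ratio of Bap1LysM OC, 0.483 to 0.648, is above that of Bap1flox OC, 0.331 to 0.459.

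In Bap1LysM, 3 members were called between BMM and OC, where 38.0% of all genes were. Asxl1 was at 94.6, 104 and 99.5 CPM in BMM and at 82.5 and 77 CPM in OC (log2 fold change -0.32, adjusted p = 0.018, edgeR). Foxk2 was at 77.8, 75.3 and 60.6 CPM and at 93.9 and 93.6 CPM (log2 fold change 0.40, adjusted p = 0.016). Hcfc1 was at 269, 250 and 225 CPM and at 294 and 301 CPM (log2 fold change 0.26, adjusted p = 0.047). Under voomWithQualityWeights 0 members were called (adjusted p 0.12, 0.10 and 0.15 for these 3), where 20.8% of all genes were, and with the replicate block Hcfc1 was not called (adjusted p = 0.084). With 2 libraries in OC these calls rest on few samples. The 3 calls were lost without Bap1LysM OC replicate 2, a fit that left replicate 1, which kept Lyz2, alone in that group. Hcfc1 kept its call in 1 of 11 fits that each left out a library. Ogt was at 191, 164 and 203 CPM and at 149 and 132 CPM (log2 fold change -0.40, SE 0.15, adjusted p = 0.061).

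**Figure D4:**
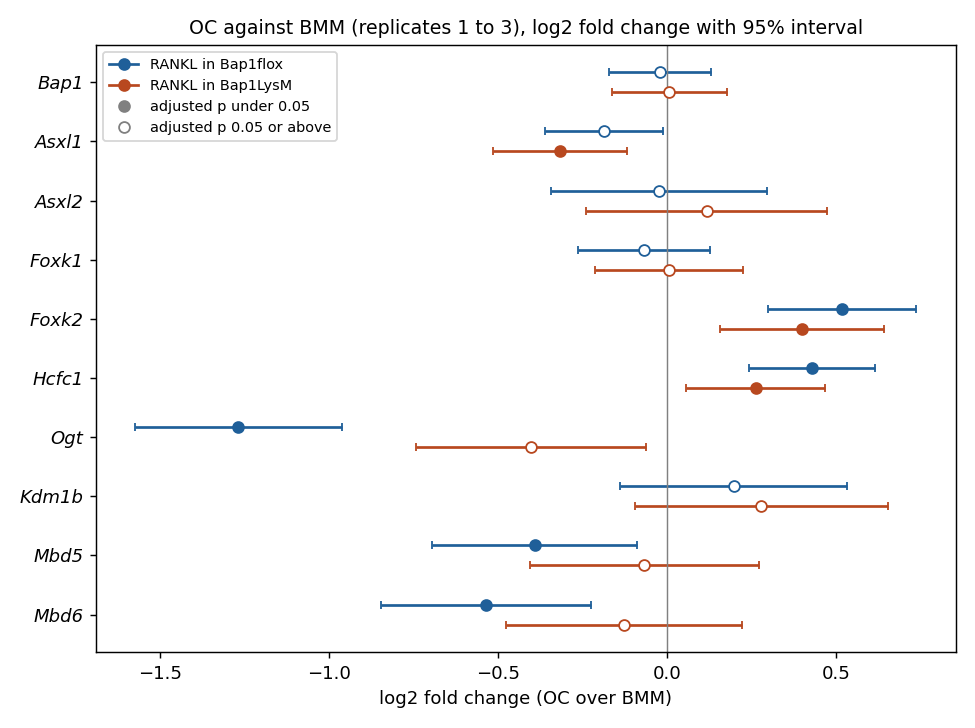
Log2 fold change of each member, OC over BMM (horizontal axis), in Bap1flox (blue) and Bap1LysM (brown-red), replicates 1 to 3. Bars are 95% intervals from edgeR and filled points had an adjusted p under 0.05. The Ogt intervals, -1.57 to -0.96 and -0.74 to -0.06, are the farthest apart.

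Whether the RANKL response differed between the genotypes was tested as an interaction. For Ogt the interaction was 0.86 on the log2 scale (SE 0.20, 95% interval 0.42 to 1.31), with an unadjusted p of 0.0016 and an adjusted p of 0.33 in edgeR over 14102 genes. In edgeR 0 genes were called (0%), with 1 member and 1751 genes at an unadjusted p under 0.05. Leaving out Bap1LysM OC replicate 1 or 2 left 1 library in that group, so the calls of those fits are not given. DESeq2 called Ogt (adjusted p = 0.035) among 111 genes, and voomWithQualityWeights called 0 members. Fits that each left out 1 library gave Ogt an interaction of 0.71 to 0.96 on the log2 scale and did not call it in edgeR. The next largest interactions of the members were those of Mbd6 (0.41, adjusted p = 0.45) and Mbd5 (0.32, adjusted p = 0.54).

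Across libraries, Asxl2 and Mbd5 varied together, with a Pearson r of 0.88 and a Spearman rho of 0.89 over the 17 libraries in log2 CPM. Within the 11 OC libraries, centred on each set's mean, r was 0.96 for Asxl2 with Mbd5, 0.93 for Asxl2 with Ogt and 0.92 for Ogt with Mbd5, the 3 members called by genotype in OC. Over all 45 pairs of members in these libraries the median r was 0.29, with 29 pairs above 0 and 16 below. Bap1 had r of -0.75, -0.74 and -0.70 with Asxl2, Mbd5 and Ogt in the same libraries. These libraries share their genotype, scaling and culture, and the genotype difference itself is part of each r, so they are given as descriptions. Over the 17 libraries the genes most like Bap1 in log2 CPM, among 10045 genes compared, were Tor2a (r = 0.94), Fuk (0.92), Dusp28 (0.91), Mtfr1l (0.90) and Zbtb42 (0.90). In the 11 centred OC libraries their r with Bap1 was 0.96, 0.92, 0.89, 0.95 and 0.90. Among the members, Foxk1 was the most like it, with r of 0.76 and rank 227.

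The other genes of the pathway were read from lists written from general knowledge, 73 of whose genes were tested in OC. Of these, 2 were called as higher and 11 as lower in Bap1LysM, where 15.8% of all genes were called. The median log2 fold change of the 73 was -0.01, that of all genes also -0.01. Among the PRC1 genes, which write the mark that BAP1 removes, 1 of 19 was higher and 4 were lower, with a median of 0.02. Cbx6, a chromobox gene of PRC1, fell from 20.4 ± 8.31 CPM in Bap1flox OC (SD, n = 6) to 8.47 ± 4.01 CPM in Bap1LysM OC (SD, n = 5; log2 fold change -1.30, adjusted p = 0.03, edgeR), and Pcgf6, a PRC1 RING partner, from 6.37 ± 0.981 to 3.31 ± 1.26 CPM (log2 fold change -0.97, adjusted p = 0.021).

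Of 8 other BAP1 partners and regulators, 4 were lower, with a median log2 fold change of -0.35. Bard1, the partner of BRCA1 in a ubiquitin ligase, had means of 17 CPM in Bap1flox OC and 12.3 CPM in Bap1LysM OC (log2 fold change -0.50, SE 0.14, adjusted p = 0.038), and Kpna2 (log2 fold change -0.43, adjusted p = 0.02) and Brca1 (-0.28, adjusted p = 0.036) were also lower. Of 8 genes of the O-GlcNAc cycle and the hexosamine pathway, which makes the sugar donor that OGT uses, 1 was called as higher and 1 as lower. Gfpt2, an enzyme of the first step of that pathway, was at 0.534 ± 0.262 CPM in Bap1flox OC (SD, n = 6) and 3.26 ± 1.73 CPM in Bap1LysM OC (SD, n = 5), and since it passed the filter on low counts only through the Bap1LysM libraries its call is no more than a description. Uap1, which makes the donor itself, had a log2 fold change of -0.43 (adjusted p = 0.0043, edgeR). Of 14 genes of the HCFC1-associated methyltransferase complexes, 2 were lower, Thap11 and Men1. The 10 paralogues, 9 other H2A deubiquitinases and 5 H2A genes tested gave 0 calls in edgeR, with 2, 1 and 2 at an unadjusted p under 0.05, and DESeq2 called 1, 0 and 0 of them and voomWithQualityWeights 4, 5 and 1. Over all genes in OC, 15.8% were called in edgeR and 30.4% had an unadjusted p under 0.05. DESeq2 called 22.5% and voomWithQualityWeights 54.9%.

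In BMM, 4 of 72 genes of the lists were called, all lower in Bap1LysM, where 5.32% of all genes were called. They were Cbx7, Cbx6 and Pcgf2 of PRC1, with log2 fold changes of -1.38, -0.95 and -0.74, and Thap11 (-0.41). The 8 other BAP1 partners and regulators, of which 4 were lower in OC, had 0 calls and a median log2 fold change of 0.51 in BMM in edgeR, with 4 at an unadjusted p under 0.05, and DESeq2 called 3 of them and voomWithQualityWeights 2. Bard1 was at 0.97 (adjusted p = 0.11, edgeR) and Brca1 at 0.84 (adjusted p = 0.088). With RANKL in Bap1flox, 25 of the 73 genes rose and 20 fell, where 56.7% of all genes were called. Uchl1, a deubiquitinase of the same family as BAP1, rose from a mean of 12.3 to a mean of 117 CPM in replicates 1 to 3 (log2 fold change 3.26, adjusted p = 7.9e-05, edgeR). Brca1 rose by 1.91 on the log2 scale. Among the PRC1 genes 10 of 19 fell, among them Cbx6 and Rnf2 (the catalytic subunit RING1B), with log2 fold changes of -1.15 and -0.86, and 3 rose, Bmi1, Pcgf5 and Pcgf6, with log2 fold changes of 0.71, 0.86 and 0.74.

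Mgea5, which encodes O-GlcNAcase, the enzyme that removes what OGT adds, was looked at after its values were seen. The per-length ratio of Ogt to Mgea5 was 1.35, 1.10 and 1.11 in Bap1flox BMM and 1.15, 1.03 and 1.17 in Bap1LysM BMM. It was 0.581 to 0.716 in Bap1flox OC (n = 6) and 0.761 to 0.955 in Bap1LysM OC (n = 5), with no overlap between the genotypes in OC.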

How the data were processed

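RNA was selected with oligo-dT and sequenced in read pairs. Per the study's methods, the authors aligned the reads with STAR 2.5.1a to the Ensembl release 76 mouse assembly (GRCm38) and ran featureCounts 1.4.6-p5, which kept reads with 1 alignment that fell in 1 gene. The use of strand is not given in the sources used here. The deposited counts are not normalized, and only they were used. The deposited CPM and RPKM values were checked to equal the count over the library total, and that over exon length.

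The members and gene lists were chosen with earlier results of these data known. Groups came from the labels. Symbols were found for 40340 of 41388 identifiers. Here 355 ribosomal RNA genes were left out, and genes at or under a CPM of 1 were dropped unless 4 of 11 OC, 2 of 6 BMM or 1 of the 11 libraries of replicates 1 to 3 lay above it. Comparisons used edgeR 4.0.16 in R 4.3.3 (quasi-likelihood test, TMM factors), with p adjusted over all genes tested by the Benjamini-Hochberg method and a threshold of 0.05. RANKL and the interaction were fitted on replicates 1 to 3 with 4 groups. The study's own methods used limma's voomWithQualityWeights, an alternative here with limma 3.58.1, as were DESeq2 1.42.0, upper-quartile and RLE factors, stricter and no filters, all libraries in one model, the library set, a replicate block and each library left out. Log2 CPM used a prior count of 2. Named were the members, Lyz2, the 5 genes most correlated with Bap1, and of the lists the 3 called genes with the largest change in each direction in OC and with RANKL in Bap1flox, beside a few chosen after their values were seen (Bard1, Kpna2, Brca1, Uap1, Thap11, Men1, Mgea5 and the calls in BMM). A few genes that this rule would name are not reported here. The scripts were tested on simulated data. Python 3.11.15, pandas 2.3.3, numpy 2.4.6 and matplotlib 3.10.9 made the tables and figures.

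The study calls the OC samples independent in the biological sense. For BMM no source used here says that the libraries came from separate mice, so p-values there measure the spread between these samples, which may be technical. In BMM, libraries with the same number deviated together from their groups, with correlations of 0.54, 0.36 and 0.41, so the number may pair them. The main BMM fit had no term for it. The replicate block, an alternative, called Asxl2 and Foxk2 in BMM, where 16.2% of all genes were called. In OC these correlations were 0.61, 0.73, 0.39, 0.67 and 0.48 for numbers 1, 2, 4, 5 and 6. Once centred within each library set they were 0.44, 0.38, 0.01, -0.14 and 0.06. In replicates 1 to 3 across BMM and OC they were 0.02 to 0.45. The biological coefficient of variation was 0.274 in OC and 0.207 in BMM, so the spread between libraries, more than counting error, sets the precision.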

Additional observations from a re-analysis of the deposited data

Results flagged for a closer look

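Ogt was lower in Bap1LysM than in Bap1flox in all 3 BMM libraries and higher in both Bap1LysM OC libraries of replicates 1 to 3, with no overlap in either. In BMM 34.0% of all genes did not overlap, and that share was not counted for OC replicates 1 to 3. The difference between these genotype effects, tested as the interaction with RANKL, was 0.86 on the log2 scale with an adjusted p of 0.33 in edgeR. Over the 20 member and group combinations with 5 or 6 libraries, 0 had a library that stood apart from the others by Dixon's criterion, which chance meets for about 1 in 20.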

How the results depend on the processing

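In OC, Asxl2 and Mbd5 were called in all 11 fits that left out a library, and 2 to 3 members were called in these fits. voomWithQualityWeights called 6 members and replicates 1 to 3 alone 0. Among all genes, 2040 were called in edgeR, 7093 under voomWithQualityWeights, 4345 with the library set as a term, 4233 with the replicate block, 4282 and 0 in replicates 4 to 6 and 1 to 3 alone, and 1118 to 3110 with a library left out (1118, 1127 and 1329 without Bap1LysM replicates 4 and 5 and Bap1flox replicate 5, and 3110 without Bap1LysM replicate 1). The replicate block changed no call of a member in OC. With it, 5 members and 59.9% of all genes were called with RANKL in Bap1flox, 2 members and 40.0% of genes in Bap1LysM, where Hcfc1 lost its call (adjusted p = 0.084), and 0 of either in the interaction.

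In BMM, where 0 members were called, 2 were called under voomWithQualityWeights, DESeq2 and the replicate block, 1 in the model of all 17 libraries, and 0 to 1 with a library left out. Over all genes the count of 693 became 1772, 2065 and 2107 in the first 3 of these and 4 to 353 without one or another of 5 of the libraries. With RANKL in Bap1LysM, 0 members were called under voomWithQualityWeights (2929 genes against 5363), 1 without a filter on low counts, and 0 to 3 with a library left out. Hcfc1 there reversed to -0.0085 (adjusted p = 0.96) in the model of all 17 libraries, which adds the second library set to OC alone. The interaction gave 1 member, Ogt, under DESeq2 and in the model of all 17 libraries, with 111 and 288 genes in all. Leaving out mitochondrial genes, or Bap1LysM OC replicate 1 beside the library set as a term, both chosen after seeing the data, gave 3 members in OC, with 15.4% and 38.8% of all genes. Without division by length the median ratios over 17 libraries were 0.793 for Asxl2 to Asxl1, 1.00 for Foxk1 to Foxk2 and 8.21 for Mbd6 to Mbd5. The cause of these differences was not tested.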
